A study of Capra hircus with 30 samples.

Results

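Granulosa cells (GCs) are the somatic cells that surround the oocyte, and they are a main source of the inhibins and activins, hormones of the TGF-β superfamily named for their opposite action on the release of follicle-stimulating hormone (FSH). The genes described here were the inhibin α subunit INHA, the β subunits INHBA and INHBB, follistatin (FST) and the follistatin-like gene FSTL3. They were chosen as the features of the deposited table whose NCBI goat gene number belonged to one of these symbols, and all 5 were found among its 20125 features. Their NCBI gene numbers are 100861261 (INHA), 100860960 (INHBA), 100861250 (INHBB), 100860914 (FST) and 102172145 (FSTL3). The table held 30 libraries made from total RNA of ovarian GCs of Ji'ning grey goats, a breed with large litters, with 5 libraries in each of 6 groups. The groups crossed 2 fertility classes, defined by litter size, with 3 follicle sizes. Large, medium and small follicles gave the groups HLG, HMG and HSG in the high fertility class and LLG, LMG and LSG in the low fertility class. Each library is named by its group and the number in its label (5, 7, 8, 9 or 10). Per the study's methods, the GCs of several goats were collected for each size and divided into samples of a few cells, so that the 5 libraries of a group are not 5 known animals and the p-values below measure only the spread between these libraries. Ages of the goats are not given in the sources used here.

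An α subunit joined to a β subunit forms an inhibin, and a pair of β subunits forms an activin. Activins bind a type II receptor (ACVR2A or ACVR2B), which recruits a type I receptor such as ACVR1B, and the signal passes through SMAD2, SMAD3 and SMAD4. Inhibins occupy the type II receptors together with betaglycan (TGFBR3) and so oppose activin, while follistatin and FSTL3 bind activins outside the cell. In the ovary, inhibin production is known to rise as follicles grow under FSH, and activins and follistatin act locally on GC growth and FSH response.

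The unit of the table is FPKM, fragment numbers scaled by the length of the gene and the mapped total of the library, so that levels are per length and can be set side by side between genes. The values were sparse in all libraries. The median feature had values above 0 in 5 of them, and a library had between 301 and 9256 features above 0. Of 23 genes that most cells use, 0 were above 0 in all 30 libraries, so a gene is only said to be listed at 0 here, and no group means are given. The deposited table gives no fragment totals, and the read totals that the study lists for 26 libraries were not used here, so no counting error is given. In genes spanning 900 to 1000 bp, the lowest value above 0 lay between 0.02 and 0.12 FPKM in 29 libraries. The labelled cell type was checked against 11 of 12 listed GC markers, since no feature matched the symbol FOXL2. KITLG, the KIT ligand, was above 0 in 19 libraries and the gap junction gene GJA1 in 18, whereas a value was listed for FSHR, the FSH receptor, in 1 HSG library only (1.26 FPKM) and for anti-Müllerian hormone (AMH) in 1 LMG library only (0.03 FPKM). The remaining 7 were above 0 in 2 to 10 libraries, and the median over the 11 markers was 4 libraries, below the 5 of all features. KIT, counted here as an oocyte gene, was above 0 in 17. The label was thus met by KITLG and GJA1 in most libraries and by the other 9 markers in at most 10. The 4 libraries HLG-5, HSG-5, LLG-5 and LLG-7 are not in the study's list of mapping results. They had the lowest FPKM totals, at 33640 to 46830 against 55094 to 82952 in the other 26. Their features above 0 numbered 301 to 1974, and those of the other 26 numbered 988 to 9256, so these ranges overlapped. The INHBA values, the INHBA group order, most joint counts and most tests of the 5 genes below are given with and without them. The tests of other pathway genes are given for all 30 libraries only. HLG-5, HSG-5 and LLG-5 share the number 5 in their labels.

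The 5 genes differed in how many libraries listed them above 0. INHBA was above 0 in 14 libraries, INHBB in 10, FST in 8, and INHA and FSTL3 in 2 each. As many libraries as INHBA or more were reached by 16% of all features, and the corresponding shares were 28.8% for INHBB, 37.4% for FST and 86.7% for both INHA and FSTL3. The inhibin α subunit was thus detected in fewer libraries than the typical feature of the table, and both β subunits in more. Less RNA of a gene per cell and fewer cells that hold it cannot be told apart in libraries of this kind. Where the genes were above 0, most of their values were low. The median of the values above 0 was 0.23 FPKM for INHBA, 0.39 for INHBB, 2.46 for INHA, 0.225 for FST and 1.09 for FSTL3, and a level above 0.5 FPKM was reached in 5, 4, 2, 3 and 1 libraries, respectively. A single library held 49.0% of the summed FPKM of INHBA, 51.6% of that of INHBB, 65.0% of that of INHA, 79.0% of that of FST and 98.6% of that of FSTL3.

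**Figure D1:**
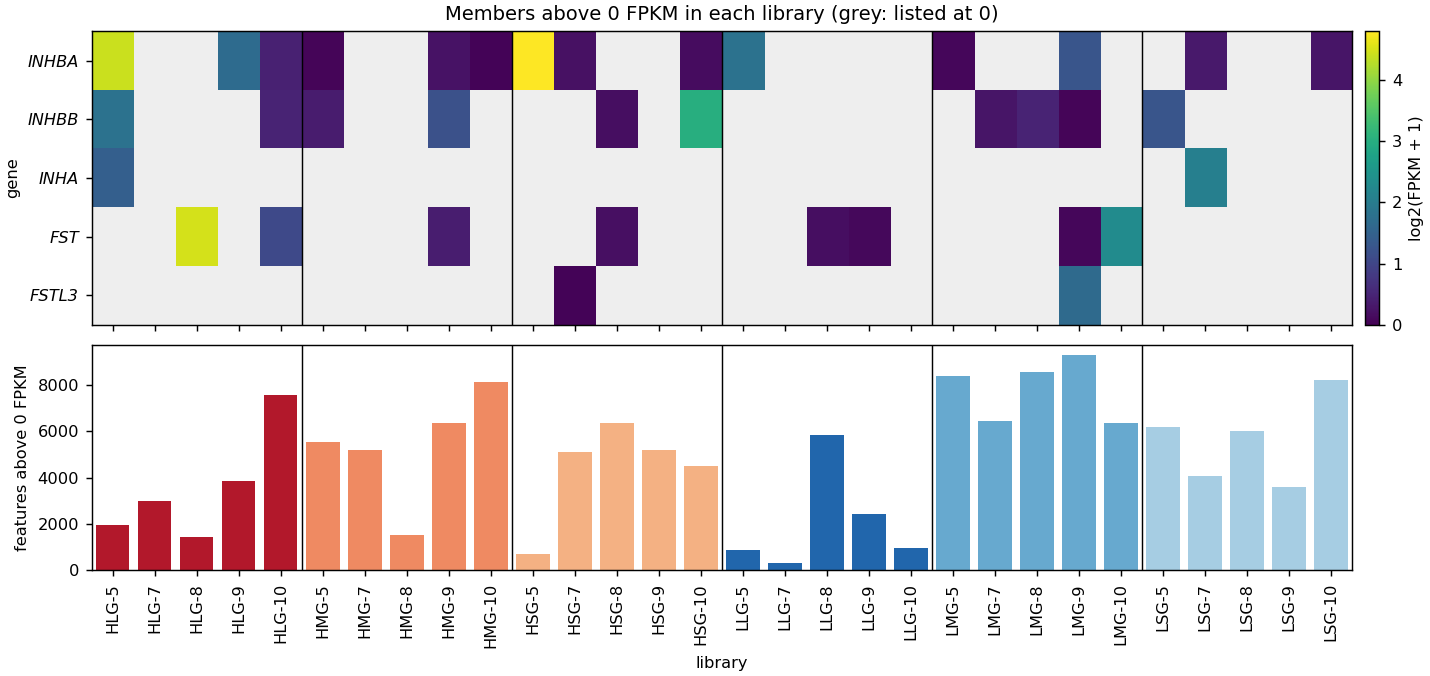
The upper panel shows log2(FPKM + 1) of the 5 genes (rows) in the 30 libraries (columns, ordered by group, with black lines between groups and grey for a value of 0), and the lower panel the number of features above 0 FPKM in each library, coloured by group. INHBA fills 14 cells and INHA 2, the brightest cells are INHBA in HSG-5 (26.84 FPKM) and HLG-5 (20.44 FPKM) and FST in HLG-8 (21.56 FPKM), and none of these 3 libraries has more than 1974 features above 0.

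INHBA encodes the subunit of inhibin A and activin A. In HLG it was at 20.44 FPKM in HLG-5, 2.22 in HLG-9 and 0.35 in HLG-10, and it was listed at 0 in HLG-7 and HLG-8. In LLG it was at 2.49 FPKM in LLG-5 and listed at 0 in the other 4 libraries. Both groups of large follicles therefore held libraries at 0 and overlapped. In medium follicles, HMG-5, HMG-9 and HMG-10 had 0.05, 0.18 and 0.03 FPKM, LMG-5 and LMG-9 had 0.06 and 1.40 FPKM, and the remaining 5 libraries were at 0. In small follicles, HSG-5, HSG-7 and HSG-10 had 26.84, 0.16 and 0.12 FPKM, LSG-7 and LSG-10 had 0.25 and 0.21 FPKM, and the remaining 5 were at 0. By the highest value, the order of the groups was HSG, HLG, LLG, LMG, LSG and HMG. No neighbours in this order were separated, since each of the 6 groups held at least 2 libraries at 0. Without the 4 libraries outside the mapping list, the order was HLG (2.22 FPKM), LMG (1.40), LSG (0.25), HMG (0.18), HSG (0.16) and LLG (0). The libraries outside the mapping list held 90.8% of the summed FPKM of INHBA, and among the other 26 libraries its highest value was 2.22 FPKM. Among the features above 0 in the same library, INHBA was at percentile 90.6 in HLG-5 and 86.2 in HSG-5.

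INHBB encodes the subunit of inhibin B and activin B. It was at 2.51 FPKM in HLG-5 and 0.39 in HLG-10 and listed at 0 in the other 3 HLG libraries and in all 5 of LLG. In medium follicles it was at 0.29 FPKM in HMG-5 and 1.28 in HMG-9, and at 0.20, 0.39 and 0.05 FPKM in LMG-7, LMG-8 and LMG-9. In small follicles it was at 0.13 FPKM in HSG-8, 7.08 in HSG-10 and 1.40 in LSG-5, and at 0 elsewhere. The highest value, that of HSG-10, was at percentile 93.3 of the features above 0 in that library. The order of the groups by the highest value was HSG, HLG, LSG, HMG, LMG and LLG, and again each group held at least 2 libraries at 0. Without the 4 libraries outside the mapping list the highest HLG value was 0.39 FPKM, equal to that of LMG. Unlike INHBA, INHBB had 18.3% of its summed FPKM in the libraries outside the mapping list.

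INHA encodes the subunit that turns a β subunit into an inhibin. It was listed at 0 in 28 libraries, and it was above 0 in HLG-5, at 1.72 FPKM, and in LSG-7, at 3.20 FPKM. One of these is a large follicle library of the high fertility class and the other a small follicle library of the low fertility class. In both of them INHBA was above 0 as well, at 20.44 and 0.25 FPKM. In LSG-7, INHA was therefore higher than INHBA per length, and in HLG-5 it was lower than both β subunits. Betaglycan, the inhibin co-receptor, was above 0 in 17 libraries, but not in either of these 2. Most features were at 0 in both, with 1974 above 0 in HLG-5 and 4082 in LSG-7, of 20125. Without HLG-5, which is outside the mapping list, INHA was above 0 in LSG-7 only.

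FST encodes follistatin. It was at 21.56 FPKM in HLG-8 and 1.08 in HLG-10, and at 0.13 and 0.07 FPKM in LLG-8 and LLG-9. In medium follicles it was at 0.31 FPKM in HMG-9, 0.06 in LMG-9 and 3.95 in LMG-10. In small follicles only HSG-8 had a value, 0.14 FPKM, and all 5 LSG libraries were at 0. The 3 values above 0.5 FPKM were thus in 3 libraries of large and medium follicles, and none was in the libraries outside the mapping list. FST was at percentile 90.7 of the features above 0 in HLG-8, where all 4 other genes described here were at 0. HLG-8 had 1452 of the 20125 features above 0. FSTL3, the second activin-binding gene, was at 0.03 FPKM in HSG-7 and 2.16 FPKM in LMG-9 and listed at 0 in the other 28 libraries. LMG-9 had the most features above 0 of all libraries, 9256, and was also the only library with 4 of the 5 genes above 0.

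**Figure D2:**
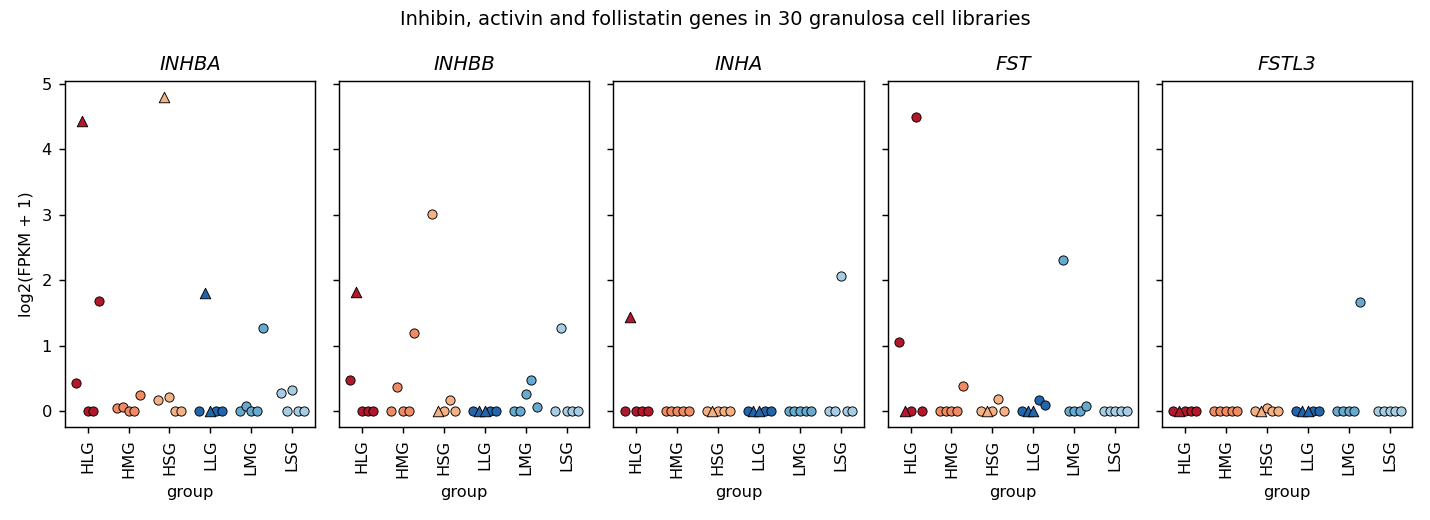
Each panel shows log2(FPKM + 1) of 1 gene (y axis) in the 6 groups (x axis), with 1 symbol per library, spread sideways within a group, and triangles for the 4 libraries outside the study's mapping list. In each panel all 6 groups reach down to 0 FPKM, and the 2 highest INHBA symbols, 20.44 FPKM in HLG and 26.84 FPKM in HSG, are triangles.

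The subunits were next examined for their joint detection, because an inhibin needs INHA with a β subunit. A β subunit was above 0 in 18 libraries, and in 16 of these INHA was listed at 0. Both β subunits were above 0 in 6 libraries. A β subunit occurred together with FST or FSTL3 in 5 libraries and without them in 13, and FST was above 0 without a β subunit in 4 (HLG-8, LLG-8, LLG-9 and LMG-10). All 5 genes were at 0 in 8 libraries, 13 had 1 of them above 0, 5 had 2, 3 had 3 and 1 had 4. In the 26 libraries of the mapping list, a β subunit was above 0 in 15, INHA with a β subunit in 1, both β subunits in 5, a β subunit with FST or FSTL3 in 5 and without them in 10, and none of the genes in 7. The median number of features above 0 was 3284 in the 8 libraries with none of the genes. It was 6156 in the 13 with 1 and 5515 in the 9 with 2 or more. The part of this number in the joint counts was not tested. For INHBA the medians were close, at 5296.5 features in the 14 libraries above 0 and 5194 in the 16 at 0. They were 6328.5 and 3957 for INHBB, 6328.5 and 4777.5 for FST and 7167 and 5194 for FSTL3, and in the opposite order for INHA, at 3028 and 5359. Across the 30 libraries, the Spearman correlation of FPKM between pairs of the 5 genes was highest for INHBA and INHA (0.366), which share their 2 libraries above 0, followed by INHBA and FSTL3 (0.271) and INHBA and INHBB (0.193), and was -0.0976 for INHBA and FST. Over the 26 libraries of the mapping list the 4 values were 0.282, 0.389, 0.193 and -0.00279. These are descriptions, in which shared zeros and the number of features detected per library enter every pair.

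Whether the genes differed between the fertility classes was then tested in 2 ways. Fisher's exact test compared the number of libraries above 0 and was adjusted over all 20125 features. It called 0% of them in each of the 7 comparisons between groups, while an unadjusted p under 0.05 was found for 61 features in large (HLG and LLG), 299 in medium (HMG and LMG) and 126 in small follicles (HSG and LSG). With 5 libraries a side, the smallest exact p is 0.00794, and 3195 features would have to reach it for an adjusted p of 0.05. Of all features, 38.1% were above 0 in more HLG than LLG libraries and 14% in fewer. These shares were 17.8% and 51.4% for HMG against LMG, and 22.1% and 40.9% for HSG against LSG. The median library had 2992 features above 0 in HLG and 988 in LLG, 5515 in HMG and 8349 in LMG, and 5078 in HSG and 5999 in LSG. INHBA was above 0 in 3 HLG libraries and 1 LLG library (Fisher's exact test, p = 0.524, adjusted 1.0), and INHBB in 2 and 0 (exact p = 0.444, adjusted 1.0). In medium follicles INHBA was above 0 in 3 HMG and 2 LMG libraries and INHBB in 2 and 3. In small follicles INHBA was above 0 in 3 HSG and 2 LSG libraries and INHBB in 2 and 1. FST had 2 and 2 libraries in large, 1 and 2 in medium and 1 and 0 in small follicles, with high fertility first. All these differences, those of INHA and FSTL3 included, had an adjusted p of 1.0 in the same exact test, with and without the 4 libraries outside the mapping list.

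Over the 3 sizes, INHBA was above 0 in 9 of 15 high fertility libraries and 5 of 15 low fertility libraries (Fisher's exact test, p = 0.272, adjusted 1.0). INHBB was above 0 in 6 and 4 of 15, FST in 4 and 4, and INHA and FSTL3 in 1 and 1. Of all features, 30% were above 0 in more high than low fertility libraries and 51.4% in fewer. The median library had 5078 features above 0 in the high and 5999 in the low fertility class. The test called 0% of the features here as well, with 171 at an unadjusted p under 0.05. Counted above 0.5 FPKM in place of 0, INHBA was found in 0 HMG libraries and 1 LMG library, and INHBB in 1 and 0, each the opposite direction of its count above 0.

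The second test was limma on log2(FPKM + 1), for features above 0.5 FPKM in at least 5 libraries. INHBA was the 1 gene of the 5 that passed this limit. It did so in exactly 5 libraries, among them HLG-5, HSG-5 and LLG-5 outside the mapping list. Of the libraries in that list, only HLG-9 and LMG-9 had INHBA above 0.5 FPKM. The fits without the libraries outside the list kept the features chosen with all 30. In all, 6058 features were tested. The fit called 0% of them in HLG against LLG, HMG against LMG, HSG against LSG, high against low fertility and the interaction of fertility with size, with 291, 312, 387, 239 and 283 features at an unadjusted p under 0.05. INHBA differed by 0.95 ± 0.67 (SE) in log2(FPKM + 1) between HLG and LLG (limma adjusted p = 0.988), by -0.20 ± 0.67 between HMG and LMG (adjusted p = 1.0) and by 0.92 ± 0.67 between HSG and LSG (adjusted p = 0.892). Over the 3 sizes the difference was 0.55 ± 0.39 (limma adjusted p = 0.952), and the difference between sizes in the fertility effect had an F of 0.953 (limma adjusted p = 0.918). None of these differences passed the threshold, and single libraries set much of their size. Without HLG-5 the difference in large follicles was 0.17 and without LLG-5 it was 1.31, without HSG-5 that in small follicles was -0.02, and without LMG-9 that in medium follicles was 0.05. Without the 4 libraries outside the mapping list, INHBA differed by 0.53 ± 0.30 in large follicles, by -0.20 ± 0.25 in medium and by -0.02 ± 0.27 in small follicles, and by 0.10 ± 0.16 over the 3 sizes (limma adjusted p from 0.981 to 1.0). With log2 of the count of detected features of each library as a covariate, INHBA differed by 1.56 ± 0.68 between HLG and LLG (limma adjusted p = 0.972). The unadjusted limma p was 0.0272 in the same fit across all features. Between HMG and LMG, INHBA differed by -0.56 ± 0.65 in this fit (limma adjusted p = 0.998). When all 20125 features were fitted without the limit, the other 4 genes could be tested too, and the adjusted limma p of the 5 genes lay between 0.589 and 1.0 over the 8 comparisons.

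**Figure D3:**
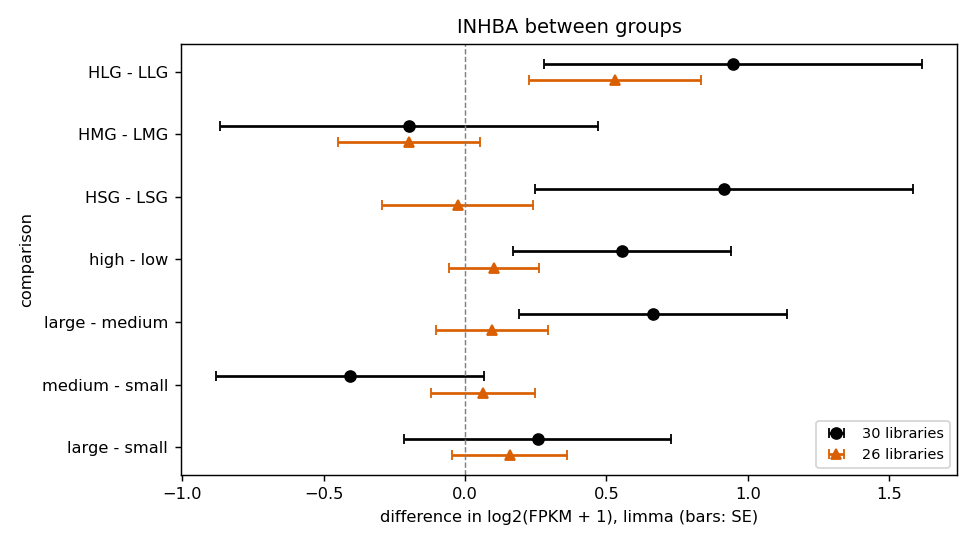
The x axis gives the difference of INHBA in log2(FPKM + 1) with its standard error from limma, and the y axis the 7 comparisons between groups, with black circles for all 30 libraries and orange triangles for the 26 in the study's mapping list. With 30 libraries HLG exceeds LLG by 0.95 and HSG exceeds LSG by 0.92, and with 26 these differences are 0.53 and -0.02.

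Follicle size was compared over both fertility classes, with 10 libraries a size. FST was above 0 in 4 libraries of large, 3 of medium and 1 of small follicles, and the difference between large and small had an exact p of 0.303 (Fisher's exact test, adjusted 1.0). Of all features, 9.64% were above 0 in more large than medium libraries and 15.5% in more large than small libraries. The median large, medium and small follicle libraries had 2210, 6372 and 5131.5 features above 0. INHBB was above 0 in 2 libraries of large, 5 of medium and 3 of small follicles (large against medium, Fisher's exact test, p = 0.35, adjusted 1.0), and INHBA in 4, 5 and 5. INHA was above 0 in 1 library of large and 1 of small follicles, and FSTL3 in 1 of medium and 1 of small. The test called 0% of features in each of the 3 pairs of sizes, and the features at an unadjusted p under 0.05 numbered 1241 for large against medium, 197 for medium against small and 335 for large against small. Without the libraries outside the mapping list, the lowest exact p of the 5 genes was 0.106, for FST in large against small follicles, and all adjusted p values were 1.0 (Fisher's exact test). With 10 libraries a side, the smallest exact p is 1.08e-05, and 5 features at it would pass.

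INHBA differed by 0.66 ± 0.47 (SE) in log2(FPKM + 1) between large and medium follicles (limma adjusted p = 0.554), by -0.41 ± 0.47 between medium and small (adjusted p = 0.995) and by 0.26 ± 0.47 between large and small (adjusted p = 0.873). Over all features tested, the median difference was -0.25 for large against medium, 0.05 for medium against small and -0.19 for large against small. The fit called 0% of features in large against medium and large against small, with 698 and 510 at an unadjusted p under 0.05, and 0.0165% in medium against small, which is 1 feature, with 311 at an unadjusted p under 0.05. Without the 4 libraries outside the mapping list the INHBA differences were 0.10 ± 0.20, 0.06 ± 0.18 and 0.16 ± 0.20. With the covariate, INHBA differed by -0.15 between large and medium and by -0.32 between large and small follicles, both in the opposite direction.

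The genes that receive and carry activin signals were examined next. Of 8 receptor genes, the type II receptors were above 0 most often. ACVR2B was above 0 in 20 libraries, at up to 4.93 FPKM, ACVR2A in 19, at up to 2.2 FPKM, and TGFBR3 in 17, at up to 2.32 FPKM. At least 1 type II receptor was above 0 in 25 libraries, and a type I activin receptor (ACVR1B or ACVR1C) in 14. A β subunit, a type II receptor and a type I receptor were above 0 together in 10 libraries (1 HLG, 2 HMG, 3 HSG, 1 LLG, 1 LMG and 2 LSG), and in 9 without the libraries outside the mapping list. In HSG-5 and HLG-5, where INHBA had its highest values, ACVR1B, ACVR1C, ACVR2A and ACVR2B were all listed at 0. Only 719 features in HSG-5 and 1974 in HLG-5 were above 0, of 20125, so most features were at 0 there. In LLG-5, INHBA was at 2.49 FPKM, ACVR1B at 24.13 FPKM and SMAD4 at 21.88 FPKM. The values in these 3 libraries, and those of FSHR and AMH above, were looked up after the values had been seen.

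Of 5 SMAD pathway genes, SMAD4, the common partner of the receptor SMADs, was above 0 in 22 libraries and ZFYVE9, which anchors them at the membrane, in 18, at up to 4.31 FPKM. The other 3 were above 0 in 6 to 12 libraries. Of 3 convertases that cut the precursor proteins, PCSK5 was above 0 in 21 libraries, at up to 3.56 FPKM, and the other 2 in 3 and 1. Of 6 related ligands and binding proteins, FSTL5 was above 0 in 15 libraries, at up to 4.66 FPKM, and the others in 1 to 13. The factor CREB1, which mediates cAMP effects on transcription, was above 0 in 21 libraries, at up to 5.85 FPKM, and the remaining 7 factors tied to subunit transcription in 3 to 13. CCND2, a cyclin that responds to FSH, was above 0 in 18 libraries, at up to 1.11 FPKM. The aromatase gene CYP19A1 and 3 further genes of FSH action and steroid synthesis were above 0 in 1 to 10. The median number of libraries above 0 was 9.5 for the receptors, 8.5 for the related ligands, 12 for the SMAD genes, 3 for the convertases and 8.5 for the factors, beside 8 for the 5 genes described here and 5 for all features.

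**Figure D4:**
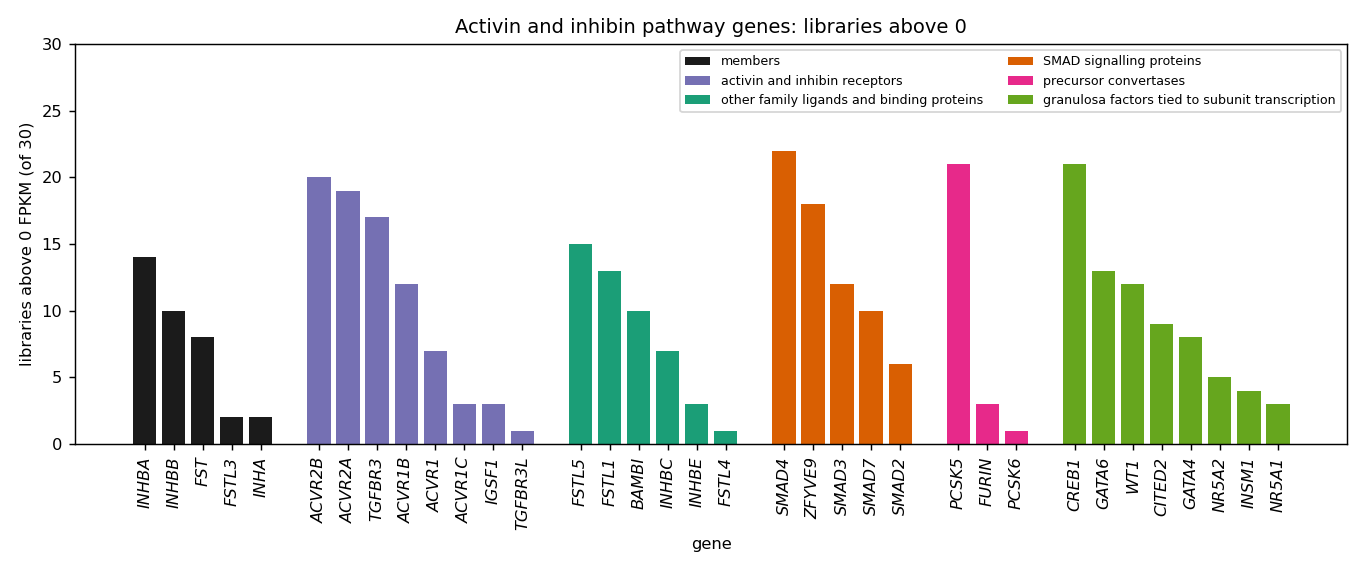
Bars give the number of libraries above 0 FPKM (y axis, of 30) for each gene (x axis), with 1 colour per gene list. INHBA (14) is the tallest of the 5 black bars on the left, while SMAD4 (22), CREB1 (21), PCSK5 (21) and ACVR2B (20) are the tallest of the other lists, and no bar reaches 30.

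In limma, 15 genes of these 6 lists passed the limit of 0.5 FPKM, and 0 were called in any of the 8 comparisons. An unadjusted p under 0.05 was reached by GATA6, a factor of GC differentiation, which was 0.90 ± 0.43 higher on the log2(FPKM + 1) scale in HSG than in LSG (limma adjusted p = 0.776). It was also reached by FSTL1, a secreted follistatin-like protein, which differed by -0.64 ± 0.26 between large and small follicles (limma adjusted p = 0.557), and by FSTL1 in the interaction. In Fisher's exact test on libraries above 0, between 61 and 1241 of all 20125 features had an unadjusted p under 0.05 in a comparison. Of the genes of these lists, 0 were called and 9 had an unadjusted exact p under 0.05 in at least 1 comparison. The lowest exact p values were 0.0031 for ACVR2A, above 0 in 3 of 10 large and 10 of 10 medium follicle libraries (adjusted 0.346), and 0.0031 for SMAD7, an inhibitory SMAD, above 0 in 7 of 10 medium and 0 of 10 small follicle libraries (adjusted 1.0). SMAD7 was named after its values were seen. Of all features, 56% were above 0 in more medium than small libraries and 23% in fewer. For ACVR2A, the libraries at 0 included HLG-5, LLG-5 and LLG-7, which are outside the mapping list. Large follicle libraries had fewer features above 0 than medium ones in the medians given above, and 73.8% of all features were above 0 in fewer large than medium libraries. Of the 1241 features at an unadjusted exact p under 0.05 in large against medium, 1240 were above 0 in fewer large libraries. ACVR2A, PCSK5, CREB1 and CCND2 were among these 1240.

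Genes of other cells in the follicle were also low in summed FPKM. Of 7 oocyte genes in the table, KIT was above 0 in 17 libraries and the others in fewer than 15, and the sum of their FPKM ranged from 0 to 7.20 in HLG, 0 to 7.27 in HMG, 0 to 11.5 in HSG, 0 to 0.75 in LLG, 0.02 to 3.40 in LMG and 0.03 to 10.16 in LSG. The summed FPKM of 6 theca and stroma genes was at most 4.76, that of 7 immune genes at most 5.30, that of 6 endothelial genes at most 6.45 and that of 2 erythroid genes at most 1.67 in a library. The summed FPKM of the 11 GC markers was at most 8.34 in the 26 libraries of the mapping list, below the highest oocyte sum of 11.5. It was 38.74 in HSG-5, outside that list, where LHCGR, the LH receptor, gave the whole sum. The theca and stroma genes were above 0 in a median of 10 libraries, and the GC markers in a median of 4. For the endothelial, erythroid, oocyte and immune genes the medians were 5, 3.5, 2 and 2. CYP17A1, INSL3, HBB and LYZ had no feature matched by symbol and were not analysed here. The part of other cells in the values of the inhibin and activin genes was not tested.

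The features whose values were most like those of the genes were found by the Spearman correlation of FPKM over the 30 libraries among 10030 features above 0 in at least 5 libraries. For INHBA these were LOC108634769 (rho = 0.6), above 0 in 10 libraries of which 9 were shared, and LOC108635404 (rho = 0.563), above 0 in 5. For INHBB they were LOC102173083 (rho = 0.74) and RALGPS1 (rho = 0.737), and for FST they were PAK6 (rho = 0.772) and LOC102174380 (rho = 0.71). PAK6 had its highest value, 26.86 FPKM, in HLG-8, the same library as FST. LOC108634769, LOC108635404 and RALGPS1 had their highest values, 13.14, 2.66 and 1.78 FPKM, in HLG-5, outside the mapping list. These correlations rest on which libraries were above 0, and they are descriptions taken as the highest of all features compared.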

How the data were processed

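The authors deposited FPKM values with 2 decimals for 20125 features in 30 libraries of GCs. Each of these features was above 0 in at least 1 library. Per the study's methods, ribosomal RNA was depleted, unique alignments to the goat genome were kept, duplicates were removed with picard, and FPKM was computed by the authors with Cufflinks on an Ensembl annotation. The aligner and the genome build are not given in the sources used here, so no coordinates are printed. FPKM values divide by gene length and mapped total, and a gene with few fragments can be listed at 0.

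Symbols were matched by NCBI gene number to RefSeq genes (goat assembly ARS1.2), and no sequences were used. limma (3.58.1, R 4.3.3) was fitted to log2(FPKM + 1) over the 6 groups together, with a robust and trended prior, and features above 0.5 FPKM in at least 5 libraries. Such fold changes understate those of low genes. Fisher's exact test (scipy 1.17.1, Python 3.11.15, with pandas 2.3.3 and numpy 2.4.6) was run on libraries above 0. Tests were two-sided, adjusted after Benjamini and Hochberg over all features tested, with a threshold of 0.05. Both steps were also run on shuffled or simulated data, and the outcomes are not given here. Figures were drawn with matplotlib 3.10.9. Alternatives were a pseudocount of 0.1, no limit or a limit of 1 FPKM, and rescaling to features with an NCBI number. Log2 of the count of detected features as a covariate and a replicate block were also used. Others were only the groups compared, detection above 0.5 or at 1 FPKM, and leaving out libraries. Named were the 5 genes, genes of the other lists above 0 in at least 15 libraries or with an unadjusted limma p under 0.05 (up to 3 a list), and the 2 features most like each gene above 0 in at least 5 libraries. The genes and lists were chosen with earlier results of these data known. FOXL2, CYP11A1 and HSD3B1 had no feature matched by symbol and were not analysed here.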

Additional observations from a re-analysis of the deposited data

Results flagged for a closer look

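The 5 genes gave 20 sets of 5 libraries (1 gene in 1 group) with a value above 0. In 17 of them the highest library was set apart, with a gap to the next one over 0.71 of the range of the group. This limit marks about 1 in 20 groups by chance where values are normally distributed. It does not hold for values that are mostly 0, and in 8 of the 17 the library was the only one above 0, which sets the gap by itself, so the number 17 is a description only.

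For INHBA these were 20.44 FPKM in HLG-5, 0.18 in HMG-9, 26.84 in HSG-5, 2.49 in LLG-5 and 1.40 in LMG-9. For INHBB they were 2.51 FPKM in HLG-5, 1.28 in HMG-9, 7.08 in HSG-10 and 1.40 in LSG-5. For INHA they were 1.72 FPKM in HLG-5 and 3.20 in LSG-7. For FST they were 21.56 FPKM in HLG-8, 0.31 in HMG-9, 0.14 in HSG-8 and 3.95 in LMG-10, and for FSTL3 0.03 in HSG-7 and 2.16 in LMG-9. HLG-5 and HMG-9 were set apart for 3 genes each.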

How the results depend on the processing

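Fisher's exact test called 0 features under each alternative except large against medium, where leaving out 1 library gave 0 to 5 (5 without HLG-10). limma called 1 feature in HLG against LLG without the 4 libraries outside the mapping list, 1 in high against low fertility after rescaling, 5 with a pseudocount of 0.1 and 31 after rescaling in large against medium, and 1 and 2 with the same settings in large against small. The single call in medium against small became 0 with no FPKM limit, with the covariate, with the replicate block and without the 4 libraries. When 1 library was left out, this count stayed the same in 4 of 30 fits and changed in 26. Leaving out 1 library gave 0 to 3 calls in HMG against LMG (3 without LMG-10), 0 to 1 in HSG against LSG (1 without LSG-5), 0 to 4 in large against medium (4 without LLG-8), 0 to 2 in medium against small (2 without LMG-9) and 0 to 1 in large against small.

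INHBA was not called under any alternative, and its lowest adjusted p in limma was 0.396. Its difference in log2(FPKM + 1) changed direction in HSG against LSG (-0.025 without the 4 libraries), in medium against small (0.063 without them) and with the covariate in large against medium (-0.15) and large against small (-0.32). The range over all other settings was 0.53 to 2.89 in HLG against LLG and -0.025 to 2.01 in HSG against LSG (both highest after rescaling). Leaving out 1 library, it ranged from 0.169 (HLG-5) to 1.31 (LLG-5) in HLG against LLG, from 0.241 (HSG-5) to 0.675 (LLG-5) in high against low fertility, from 0.275 (HLG-5) to 0.828 (HLG-7 or HLG-8) in large against medium, from -0.266 to 0.0493 in HMG against LMG (0.0493 without LMG-9), from -0.025 to 1.18 in HSG against LSG (lowest without HSG-5), from -0.537 to 0.063 in medium against small (highest without HSG-5) and from -0.13 to 0.73 in large against small (lowest without HLG-5). Above 0.5 FPKM and at 1 FPKM or more, the difference in the share of libraries turned to -20 percentage points for INHBA and 20 for INHBB in HMG against LMG, to 20 for INHBA in large against medium and large against small, and to -10 for INHBB in medium against small. INHBA reached 1 FPKM in HLG-5, HLG-9, HSG-5, LLG-5 and LMG-9, and only HLG-9 and LMG-9 of these are in the mapping list. The cause of these turns was not tested.

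Over the features tested, replicate numbers showed little sign of pairing the libraries, and this check does not cover single genes. INHBA had its highest values in HSG-5, HLG-5 and LLG-5, which share a number. Over all 75 pairs of the same number, the correlations of deviations lay between -0.0335 and 0.124, with 1 over 0.1. For the 300 pairs of different numbers they lay between -0.0727 and 0.052. Libraries of the same number and size had values between -0.0315 and 0.0356. Of 30 libraries, 7 correlated best with their own number, a count to be read beside the 75 and 300 pairs, since some matches arise without pairing. With the replicate block, INHBA differed by 0.95 ± 0.59 between HLG and LLG (limma adjusted p = 0.958), and it changed no call other than the one above. Fragment totals were not used, values at 0 cannot be told from low levels, and differences of single genes in a few libraries could not be detected here.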
